A study of Mus musculus with 4 samples.

Results

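The matrix metalloproteases (MMPs), the ADAM and ADAMTS proteases, the ADAMTS-like (ADAMTSL) proteins and the tissue inhibitors of metalloproteases (TIMPs) were followed at the lesion site of the contused mouse spinal cord. Genes were taken by symbol, and 55 of the 14718 gene symbols in the table belonged to the family. They were 18 MMPs, 14 ADAMs, 14 ADAMTSs, 5 ADAMTSLs and 4 TIMPs. The RefSeq annotation of GRCm38.p6 holds 85 protein-coding genes with such symbols, and the other 30, among them Mmp7, Adamts4 and Adamts8, had no values analysed here. RNA-seq had been carried out on segments of about 4 mm around the lesion of male targeted replacement (TR) mice aged 3 to 5 months, in which the coding region of human ApoE3 or ApoE4 stands in place of the murine gene. All groups had a 50 kdyne contusion at T9 and were collected 7 or 21 days post injury (dpi), which gives the groups ApoE3 at 7 dpi, ApoE4 at 7 dpi, ApoE3 at 21 dpi and ApoE4 at 21 dpi. The study used 3 mice per genotype and time point, but each group has 1 deposited value per gene. No spread between mice can be computed, no difference below has a replicate check, and no test was made. Neither uninjured nor sham cord was analysed here, so no level can be set against that of an intact cord.

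MMPs and ADAMTSs are zinc proteases that cut collagens, proteoglycans and other parts of the extracellular matrix, whereas most active ADAMs sit in the cell membrane and release the outer part of cytokines, receptors and adhesion molecules. TIMPs bind the active site of these enzymes and block it, and most MMPs are made as inactive precursors that another protease has to cut. After spinal cord injury the family is known for its part in the opening of the blood-spinal cord barrier, the entry of leukocytes, the turnover of the chondroitin sulfate proteoglycans of the glial scar and the remodelling of matrix during repair.

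Values are FPKM, fragments scaled to transcript length and library size. Every ratio is log2 of FPKM + 1, which understates the difference of genes with low values. A genotype ratio is ApoE3 to ApoE4 and was called at 1.3-fold, and a time ratio is 21 dpi to 7 dpi and was called at 2-fold. Which genotype a value column belongs to can be read in a pair of ways. The name of the comparison on each row puts ApoE3 first, and that order, which the study also follows, was used, whereas the numbers in the column headings would pair the values the other way round. Under that other reading every direction between genotypes below would be the opposite, and the values of both time ratios would change places.

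Of the 55 genes, 52 were listed at 7 dpi, 40 at 21 dpi and 37 at both. Those listed only at 7 dpi were Mmp3, Mmp8, Mmp10, Mmp13, Mmp27, Mmp28, Adam3, Adam12, Adam22, Adamts7, Adamts12, Adamts14, Adamtsl3, Adamtsl4 and Adamtsl5. Those listed only at 21 dpi were Mmp25, Adam8 and Adamts17. A gene that is not listed may be low or may have been left out for another reason, and nothing was read from its absence.

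**Figure D1:**
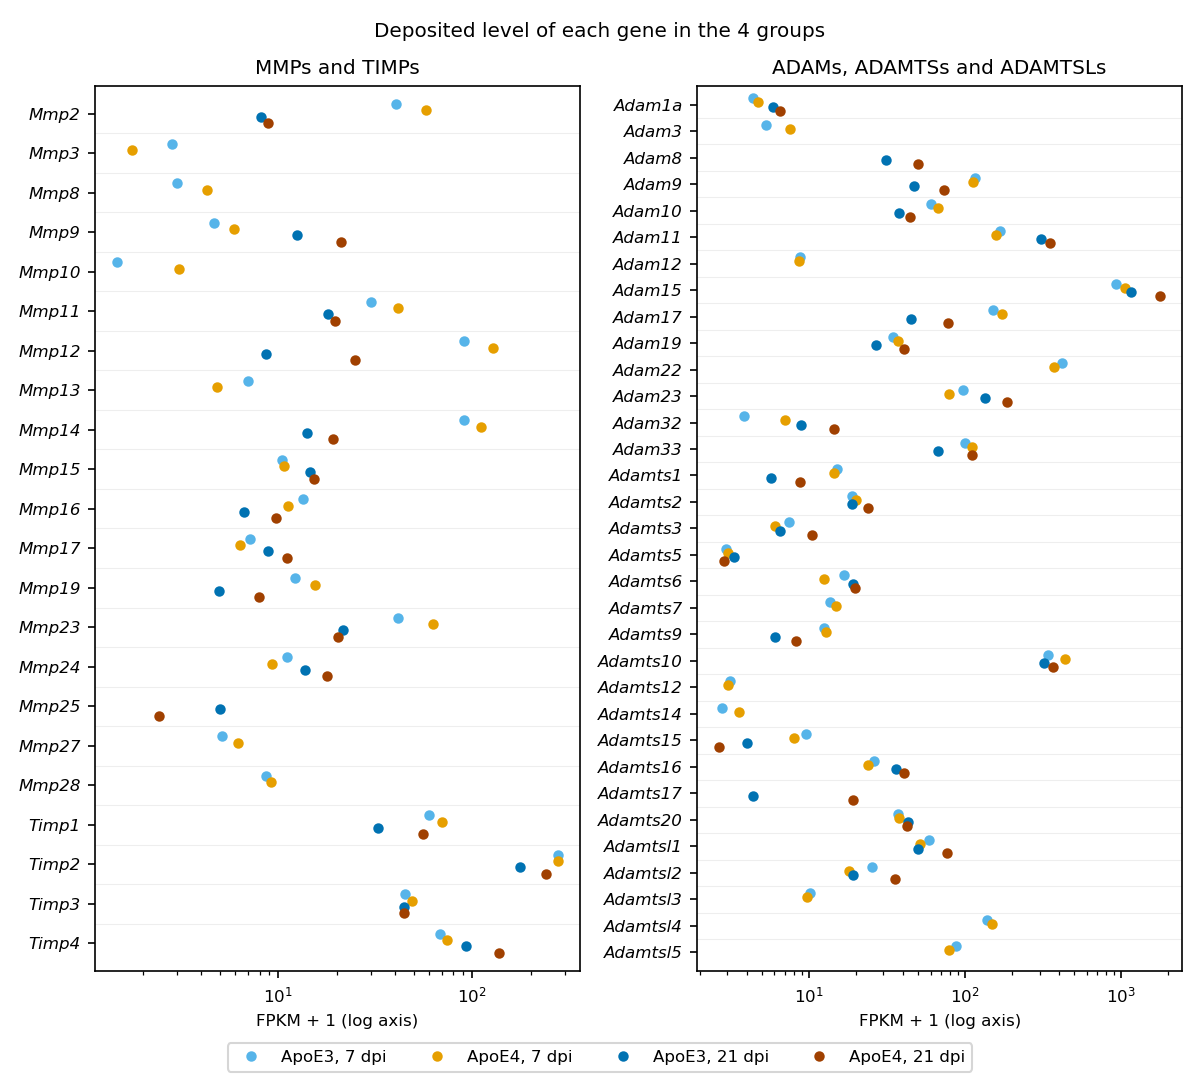
Deposited level of each of the 55 genes in the 4 groups, with FPKM + 1 on a log axis and 1 point per group. Mmp2, Mmp12 and Mmp14 have both 7 dpi points far to the right of both 21 dpi points, and Mmp9 has them to the left. Points of genes listed at 1 time point are missing for the other.

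Levels of different genes could not be compared as deposited. For many genes, FPKM was a whole multiple of a number with 6 significant digits, and the factor was the number of transcripts that RefSeq gives for the gene. Of 5891 genes with at least 3 RefSeq transcripts and values in all 4 groups, 69.7% had all values divisible in this way within 0.51 of the last digit written. With the number of transcripts plus 1 as the factor, the share was 5.16%. Of 3044 genes with 1 transcript, 94.0% had values with no more than 6 significant digits, within the same tolerance. How the authors' values came to hold this factor was not tested. A ratio of 2 groups of the same gene keeps it only through the added 1, but a comparison between genes needs it removed.

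Among the family, 25 genes listed at both time points had values divisible by their number of transcripts, and their mean levels over the groups were ordered after division. Timp2, an inhibitor that also takes part in the activation of Mmp2 at the cell surface, took place 1 with 241 FPKM, though Adam15 was just above it at 21 dpi. Adam15, a membrane ADAM with an integrin-binding domain, took place 2 with 175 FPKM after its 1227 FPKM were divided by 7. Mmp14, the membrane-type protease that activates Mmp2, took place 3 with 57.6 FPKM, and Timp3, the inhibitor that binds to matrix, place 4 with 44.7. Mmp14 held this place at 7 dpi, with a mean of 99.5 FPKM, but took place 7 at 21 dpi, with 15.6, where Timp3 was on place 3. Division moved some genes far down the order. Adam11, a neuronal ADAM without protease activity, went from place 2 with 245 FPKM to place 7 with 20.4, since it has 12 transcripts. By time point, it took place 11 at 7 dpi, with 13.4 FPKM, and place 5 at 21 dpi, with 27.4. Adam33 went from place 4 with 96.2 FPKM to place 14 with 6.87, since it has 14. Of the ADAMTS genes ordered, Adamts1 was the highest, and Adamts15, at 1.69, was the lowest of all 25, though at 7 dpi alone Adamts3 was. No spread between mice is known, so the order of neighbours cannot be told from noise.

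**Figure D2:**
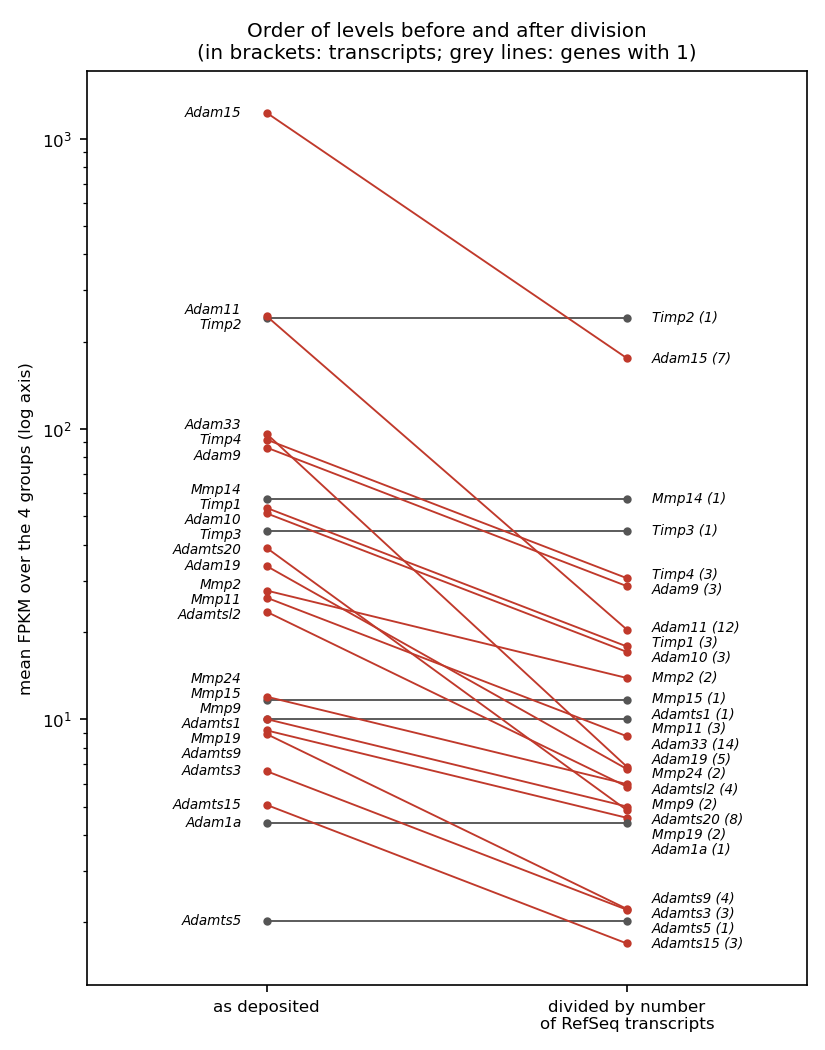
Mean FPKM over the 4 groups of 25 genes of the family, as deposited on the left and divided by the number of RefSeq transcripts on the right, on a log axis. Timp2 replaces Adam15 at the top after division, and Adam33 falls by 10 places.

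The time ratios ask how the injured tissue differed between the phase in which recovery begins and a later phase. In ApoE3 mice, 10 of the 37 genes listed at both time points were lower at 21 dpi, compared to 7.25% of 10876 listed genes, and 2 were higher, compared to 6.1%. In ApoE4 mice, 7 of 37 were lower, compared to 4% of all genes, and 4 were higher, compared to 21.3%. MMPs made up much of the falls, with 5 of 11 lower in each genotype and 1 higher in each. The median time ratio of the 37 genes was -0.22 in ApoE3 and 0.00077 in ApoE4. All genes together had moved as well, since genes averaging 1 FPKM or more had a median ratio of 0.089 in ApoE3 and 0.53 in ApoE4. Whether the time points were normalized together is not given in the sources used here. With the median subtracted, 11 of 37 were lower and 2 higher in ApoE3, compared to 8.51% and 4.45% of all genes. In ApoE4, 12 of 37 were lower and 1 higher, compared to 9.06% and 5.09%.

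In both genotypes, which rest on different mice, 5 of 37 genes fell past 2-fold, compared to 373 of all 10876 genes. They were Mmp2, Mmp12, Mmp14, Adam17 and Adamts15. Mmp9 and Adam32 rose past 2-fold in both, as did 584 of all genes. Relative to the medians, 10 of 37 fell in both, and Mmp9 alone rose in both, with 680 and 279 such genes among all 10876. The 5 added by the subtraction were Mmp19, Mmp23, Adam9, Adamts1 and Adamts9.

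**Figure D3:**
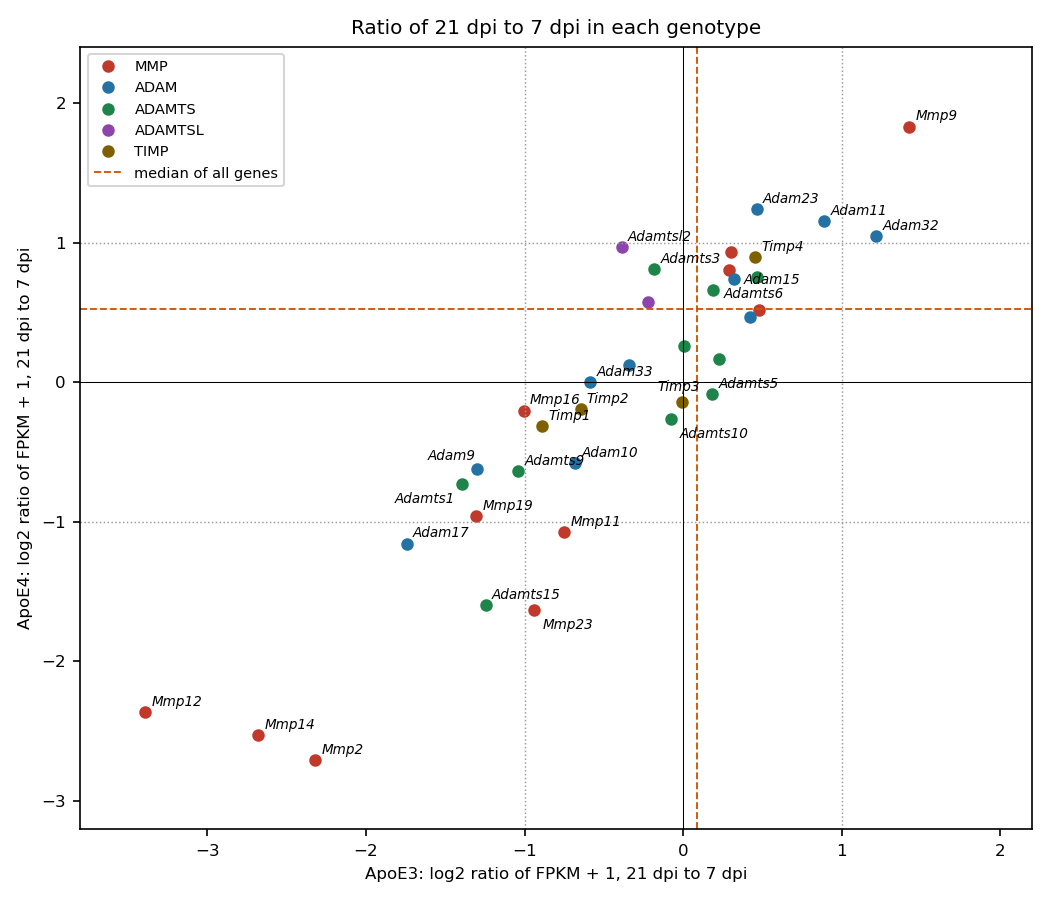
Log2 ratio of FPKM + 1 at 21 dpi to 7 dpi in ApoE3 (x axis) and ApoE4 (y axis) for the 37 genes listed at both time points, 1 point per gene. Dotted lines mark 2-fold and dashed lines the median of all genes, 0.089 in ApoE3 and 0.53 in ApoE4. Mmp12, Mmp14 and Mmp2 lie apart at the lower left and Mmp9 at the upper right.

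The genotype ratios ask how ApoE3 and ApoE4 mice differed at each time point. At 7 dpi, 4 of 52 genes were higher in ApoE3, compared to 3.78% of 14123 listed genes, and 8 of 52 were higher in ApoE4, compared to 4.76%. The MMPs held 6 of these 8 and 2 of these 4, out of 17 listed. Their median ratio was -0.29, that of all 52 genes was -0.089 and that of all listed genes was 0.0020. At 21 dpi, 2 of 40 genes were higher in ApoE3, compared to 2.01% of 11470 listed genes, and 22 of 40 were higher in ApoE4, compared to 58.9%, so the family lay close to the background. Genes averaging 1 FPKM or more had a median ratio of -0.42 at 21 dpi. Relative to it, 7 of 40 were higher in ApoE3, compared to 7.46% of all genes, and 3 were higher in ApoE4, compared to 8.06%, and the median of the 40 genes was -0.022 (genotype ratio at 21 dpi: median log2 ratio of members). Directions of family genes between genotypes at 21 dpi are therefore given with the value relative to this median.

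**Figure D4:**
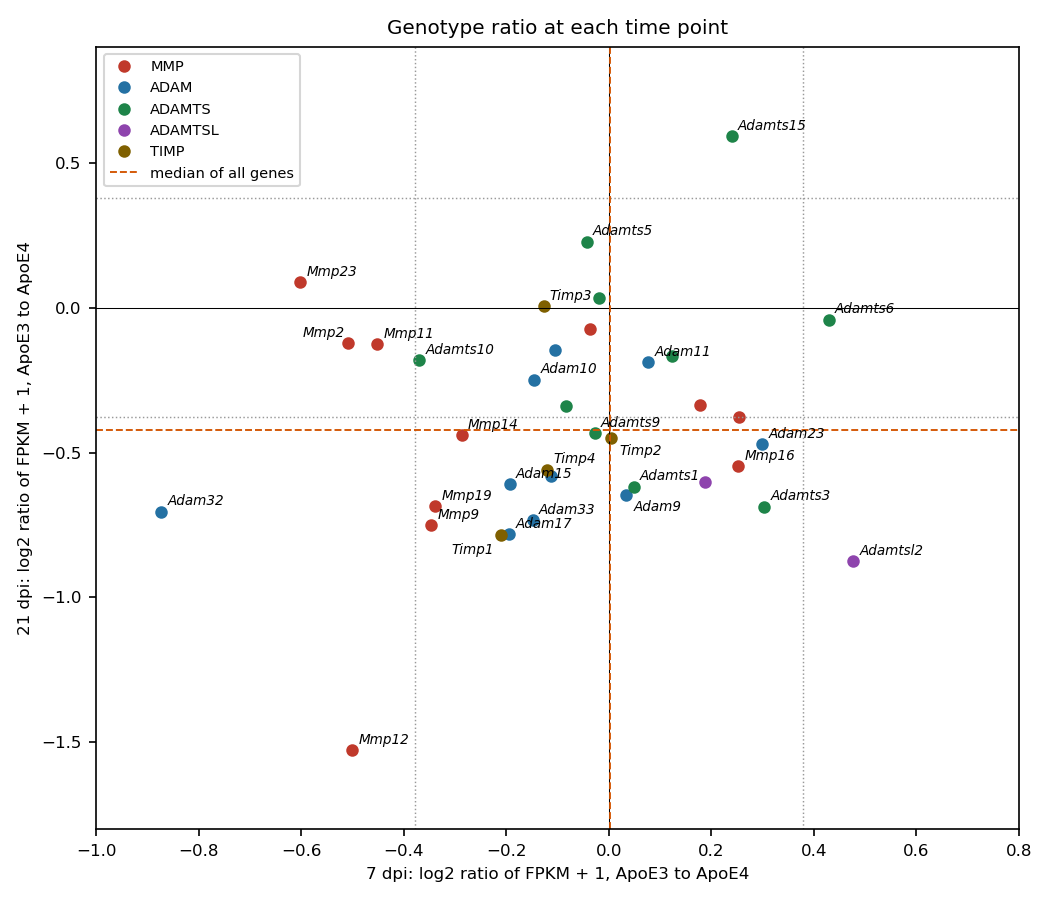
Log2 ratio of FPKM + 1 in ApoE3 to ApoE4 at 7 dpi (x axis) and 21 dpi (y axis) for the 37 genes listed at both, 1 point per gene. Dotted lines mark 1.3-fold and dashed lines the median of all genes, which is -0.42 at 21 dpi. Mmp12 lies alone at the bottom, and Adamtsl2 at the lower right.

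The gelatinases Mmp2 and Mmp9, which cut denatured collagen and the collagen of basement membranes, moved in opposite directions with time. Mmp2, made mainly by fibroblasts and other stromal cells, had 39.5 FPKM in ApoE3 mice and 56.6 in ApoE4 mice at 7 dpi, and 7.11 and 7.83 at 21 dpi. It fell 4.99-fold in ApoE3 and 6.52-fold in ApoE4, and was higher in ApoE4 at 7 dpi with a ratio of -0.51. At 21 dpi its ratio was -0.12, or 0.30 relative to all genes. Mmp9, which neutrophils store in granules and which activated glia and macrophages also make, had 3.65 FPKM in ApoE3 mice and 4.91 in ApoE4 mice at 7 dpi, and 11.5 and 20.0 at 21 dpi. It rose in both genotypes, with time ratios of 1.43 in ApoE3 and 1.83 in ApoE4, which placed it 129th and 185th from the top of 10876 genes. Both 21 dpi values were above both 7 dpi values. Its genotype ratio was -0.35 at 7 dpi, inside the fold, and -0.75 at 21 dpi, past the fold but -0.33 and inside it relative to all genes. With 0.1 added in place of 1, the ratio of Mmp9 at 7 dpi was -0.42 and past the fold toward ApoE4.

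Mmp12, the elastase of macrophages, had the lowest time ratio of the family in ApoE3. It had 89.6 FPKM in ApoE3 mice and 127 in ApoE4 mice at 7 dpi, and 7.63 and 23.9 at 21 dpi. The fall was 10.5-fold in ApoE3, the 20th lowest ratio of 10876 genes, and 5.15-fold in ApoE4, the 68th lowest. ApoE4 was above ApoE3 at both time points, by 1.41-fold at 7 dpi and 2.89-fold at 21 dpi. Of the genes called at 21 dpi, it was 1 of 3 that also passed the fold toward ApoE4 relative to all genes, with -1.11.

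Mmp12 is part of a run of 10 neighbouring MMP genes in the RefSeq annotation, of which 6 were listed: Mmp13, Mmp12, Mmp3, Mmp10, Mmp8 and Mmp27. The others of the run, at low levels, were listed at 7 dpi only. The collagenase Mmp13, which opens fibrillar collagen, had 6.01 FPKM in ApoE3 and 3.84 in ApoE4. Mmp8, the collagenase of neutrophils, had 2.01 in ApoE3 and 3.31 in ApoE4. The neighbours thus differed in direction, Mmp13 higher in ApoE3 with 0.53 and Mmp8 higher in ApoE4 with -0.52. The stromelysins Mmp3 and Mmp10, which cut a wide range of matrix proteins and other pro-MMPs, also went opposite ways. Mmp3 had 1.82 FPKM in ApoE3 and 0.768 in ApoE4, a ratio of 0.67. Mmp10 had 0.478 in ApoE3 and 2.06 in ApoE4, a ratio of -1.05, which was the only one of the 52 genes to pass 2-fold at 7 dpi with the added 1. With 0.1 added, Mmp3 and Adam32 passed it too. Mmp27 had 4.14 FPKM in ApoE3 and 5.21 in ApoE4, inside the fold. These 4 called genes lay under 7 FPKM in both groups, and the number of reads behind them is unknown.

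Promoters of the family were searched for TGANTCA, the site that AP-1 (Fos and Jun) binds and that reads the same on both strands. RefSeq windows of GRCm38.p6, 250 bases before to 50 bases after a gene's start, were at hand for 37 of the 55 genes. The letters were found in 5 of these 37 genes, or 13.5%, compared to 8.97% of 27025 genes with a window. The 5 were Mmp3, Mmp10, Mmp12, Mmp13 and Adam19, so 4 of them belong to the run of neighbours, while Mmp8 and Mmp27 of the same run held no match. The windows of these 4 neighbours are shown because each holds the letters shortly before its start. They begin at position -63 from the gene's start in Mmp10, -46 in Mmp3, -44 from the second start of Mmp12 and -35 in Mmp13. All 4 lie on chromosome 9, on the + strand. Capitals mark the match, which describes the letters and not the binding of a factor.
Mmp13 (chr9:7272264-7272563, + strand, GRCm38.p6): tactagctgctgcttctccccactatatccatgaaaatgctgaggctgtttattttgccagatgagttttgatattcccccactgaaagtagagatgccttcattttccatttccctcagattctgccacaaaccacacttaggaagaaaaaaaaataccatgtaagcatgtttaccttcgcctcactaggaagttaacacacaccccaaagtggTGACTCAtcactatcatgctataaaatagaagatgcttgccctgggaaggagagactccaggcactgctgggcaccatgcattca
Mmp12 (chr9:7347124-7347423, + strand, GRCm38.p6): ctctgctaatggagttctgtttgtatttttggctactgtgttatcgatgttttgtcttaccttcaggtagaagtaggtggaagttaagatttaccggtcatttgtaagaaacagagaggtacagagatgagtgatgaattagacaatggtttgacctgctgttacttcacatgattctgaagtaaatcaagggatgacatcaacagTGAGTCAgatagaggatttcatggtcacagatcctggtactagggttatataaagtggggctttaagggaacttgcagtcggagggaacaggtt
Mmp3 (chr9:7445572-7445871, + strand, GRCm38.p6): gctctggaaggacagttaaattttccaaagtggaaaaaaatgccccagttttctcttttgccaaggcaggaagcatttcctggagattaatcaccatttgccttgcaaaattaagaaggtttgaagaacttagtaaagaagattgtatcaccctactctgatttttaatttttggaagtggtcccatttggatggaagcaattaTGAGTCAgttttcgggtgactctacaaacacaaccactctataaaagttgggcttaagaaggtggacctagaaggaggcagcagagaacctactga
Mmp10 (chr9:7502092-7502391, + strand, GRCm38.p6): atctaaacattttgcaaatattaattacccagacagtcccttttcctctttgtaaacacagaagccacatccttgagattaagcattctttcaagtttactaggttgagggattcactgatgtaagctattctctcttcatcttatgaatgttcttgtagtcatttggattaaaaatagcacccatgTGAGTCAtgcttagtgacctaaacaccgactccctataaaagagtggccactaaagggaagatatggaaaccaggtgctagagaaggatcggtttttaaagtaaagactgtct
The genotype ratios at 7 dpi of these 4 genes were 0.67 for Mmp3, -1.05 for Mmp10, -0.50 for Mmp12 and 0.53 for Mmp13, with both directions present among genes that hold the match.

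Mmp11, stromelysin 3, is made by stromal cells and is activated inside the cell by furin. It had 29.2 FPKM in ApoE3 mice and 40.3 in ApoE4 mice at 7 dpi, and 17.0 and 18.6 at 21 dpi. It was higher in ApoE4 at 7 dpi with -0.45, and it fell 2.11-fold with time in ApoE4. In ApoE3 its time ratio of -0.75 stayed inside the fold.

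Of the membrane-type MMPs, which act at the cell surface, 5 were listed at 7 dpi and 6 at 21 dpi. Mmp14 had 89.6 FPKM in ApoE3 mice and 109 in ApoE4 mice at 7 dpi, and 13.1 and 18.2 at 21 dpi. It fell 6.41-fold in ApoE3 and 5.77-fold in ApoE4, and both 7 dpi values stood well above both 21 dpi values. Its genotype ratio was -0.29 at 7 dpi, and -0.44 at 21 dpi, which is -0.02 relative to all genes. Mmp16, a relative of Mmp14 found in the nervous system, had 12.4 and 10.3 FPKM at 7 dpi and 5.69 and 8.78 at 21 dpi, and fell 2.01-fold in ApoE3 only just past the fold. In ApoE4 its time ratio was -0.20. Mmp15, Mmp17 and Mmp24 had time ratios from 0.29 to 0.93, none past 2-fold. Mmp24, which is enriched in neurons, had 10.1 and 8.31 FPKM at 7 dpi and 12.7 and 16.8 at 21 dpi. Mmp25, the membrane-type MMP of leukocytes, was listed at 21 dpi with 3.996 FPKM in ApoE3 and 1.43 in ApoE4, a ratio of 1.04, and 1.46 relative to all genes, or 0.66 when the values were divided by transcript number.

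Mmp19 and Mmp23 were lower at 21 dpi in both genotypes, each past 2-fold in 1 of them. Mmp19, which cuts basement membrane proteins, had 11.2 FPKM in ApoE3 mice and 14.5 in ApoE4 mice at 7 dpi, and 3.95 and 6.97 at 21 dpi, with time ratios of -1.31 and -0.96. Mmp23, a small MMP without the usual hemopexin domain, had 40.2 and 61.6 FPKM at 7 dpi and 20.5 and 19.2 at 21 dpi, with time ratios of -0.94 and -1.63. Relative to all genes, both passed 2-fold in both genotypes. Mmp23 was also higher in ApoE4 at 7 dpi, with -0.60. At 21 dpi its ratio was 0.09, or 0.51 relative to all genes, so it passed the fold toward ApoE3 only after the median was subtracted. Mmp28, listed at 7 dpi, had 7.60 and 8.19 FPKM.

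Among the ADAMs, Adam17 stood out with time. This sheddase releases TNF, TNF receptors and ligands of the EGF receptor from the cell surface. It had 149.7 FPKM in ApoE3 mice and 171 in ApoE4 mice at 7 dpi, and 44.0 and 76.4 at 21 dpi. It fell 3.35-fold in ApoE3 and 2.23-fold in ApoE4, and both 7 dpi values were the higher ones. Its ratio between genotypes was -0.19 at 7 dpi and -0.78 at 21 dpi, and the latter lay inside the fold, at -0.36, relative to all genes. Adam10, the alpha-secretase of the amyloid precursor protein and a sheddase of Notch and N-cadherin, had 59.2 and 65.6 FPKM at 7 dpi and 36.5 and 43.6 at 21 dpi. Its time ratios of -0.68 and -0.58 stayed inside the fold, although that in ApoE4 passed it relative to all genes, with -1.11. Adam9, a further sheddase, had 115 and 112 FPKM at 7 dpi and 46.0 and 72.6 at 21 dpi, and fell 2.46-fold in ApoE3. Its time ratio in ApoE4 was -0.62, and -1.14 relative to all genes.

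Adam11, Adam22 and Adam23 lack protease activity and bind LGI proteins or other partners at neuronal membranes. Adam11 had 165 FPKM in ApoE3 mice and 157 in ApoE4 mice at 7 dpi, and 307 and 349.7 at 21 dpi. Adam23 had 96.0 and 77.8 FPKM at 7 dpi and 133 and 185 at 21 dpi. Both rose past 2-fold in ApoE4, with time ratios of 1.15 and 1.24, but not relative to all genes, where they were 0.63 and 0.71. In ApoE3 the time ratios were 0.89 for Adam11 and 0.47 for Adam23. Adam22 was listed at 7 dpi only, with 417 FPKM in ApoE3 and 367 in ApoE4, a ratio of 0.18.

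The other ADAMs include genes known from testis and from leukocytes. Adam32, known from testis, had 2.85 FPKM in ApoE3 mice and 6.05 in ApoE4 mice at 7 dpi, and 7.95 and 13.6 at 21 dpi. It rose in both genotypes, with 1.22 and 1.05, and was higher in ApoE4 at both time points, with -0.87 and -0.70. Relative to all genes, its time ratio in ApoE4 was 0.52 and its genotype ratio at 21 dpi was -0.28, both inside the fold. Adam3, also a testis ADAM, had 4.31 FPKM in ApoE3 mice and 6.60 in ApoE4 mice at 7 dpi, a ratio of -0.52 that was -0.32 and inside the fold when the values were divided by its 5 transcripts. Adam8, a protease of leukocytes, was listed at 21 dpi with 30.0 FPKM in ApoE3 and 49.0 in ApoE4, a ratio of -0.69, or -0.26 relative to all genes. Adam15 had 927 FPKM in ApoE3 mice and 1060.0 in ApoE4 mice at 7 dpi, and 1157 and 1766 at 21 dpi. Adam33 had 99.1 and 110.0 FPKM at 7 dpi, and 65.7 and 110.0 at 21 dpi. Both were past the fold toward ApoE4 at 21 dpi but inside it relative to all genes. Adam1a, Adam12 and Adam19 had genotype ratios at 7 dpi from -0.11 to 0.02 and no time ratio past 2-fold where listed, and Adam19 was past the fold toward ApoE4 at 21 dpi, with -0.58, or -0.16 relative to all genes.

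The ADAMTSs that cut aggrecan, brevican, neurocan and versican, the proteoglycans of the glial scar and the perineuronal net, differed with time in part. Of the 5 listed, 3 fell past 2-fold in ApoE3 and 1 in ApoE4, compared to 7.25% and 4% of all genes. None rose past it in either, compared to 6.1% and 21.3%. Adamts1 had 14.0 FPKM in ApoE3 mice and 13.5 in ApoE4 mice at 7 dpi, and 4.70 and 7.76 at 21 dpi, with time ratios of -1.40 and -0.73. Adamts9 had 11.5 and 11.8 FPKM at 7 dpi and 5.09 and 7.22 at 21 dpi, with time ratios of -1.04 and -0.63. Relative to all genes, both also passed 2-fold in ApoE4, with -1.26 for Adamts1 and -1.16 for Adamts9. Adamts15 had 8.53 FPKM in ApoE3 mice and 7.07 in ApoE4 mice at 7 dpi, and 3.02 and 1.67 at 21 dpi, and fell 2.37-fold and 3.02-fold. It was 1 of 2 family genes higher in ApoE3 at 21 dpi, with 0.59, or 1.01 relative to all genes. When values were divided by transcript number, the ratio of Adamts15 at 21 dpi was 0.37 and its time ratio in ApoE3 was -0.94, both inside the fold, as was the time ratio of Adamts9 in ApoE3, at -0.77. Adamts5 was low throughout, with 1.93 and 2.02 FPKM at 7 dpi and 2.33 and 1.84 at 21 dpi. Its genotype ratio at 21 dpi was 0.23, and 0.65 relative to all genes. Adamts20 had between 36.0 and 42.2 FPKM in the 4 groups, and its genotype ratio at 21 dpi was 0.04, and 0.46 relative to all genes.

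The procollagen N-proteinases Adamts2, Adamts3 and Adamts14 trim the amino end of fibrillar procollagens. Adamts2 had 17.9 and 19.0 FPKM at 7 dpi and 17.9 and 22.9 at 21 dpi. Adamts3 had 6.43 FPKM in ApoE3 mice and 5.02 in ApoE4 mice at 7 dpi, and 5.54 and 9.53 at 21 dpi. Its genotype ratio was 0.30 at 7 dpi and -0.69 at 21 dpi, the latter past the fold but -0.26 relative to all genes. Adamts14, listed at 7 dpi, had 1.79 and 2.57 FPKM. Neither Adamts2 nor Adamts3 passed 2-fold with time.

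Of the other ADAMTSs, Adamts17 had the lowest genotype ratio of the 40 genes at 21 dpi. It was listed only there, with 3.40 FPKM in ApoE3 and 18.1 in ApoE4, a ratio of -2.12, or -1.70 relative to all genes, and -1.36 when the values were divided by transcript number. Adamts6, which acts on microfibrils, had 15.8 FPKM in ApoE3 mice and 11.4 in ApoE4 mice at 7 dpi, and 18.1 and 18.7 at 21 dpi. It was higher in ApoE3 at 7 dpi with 0.43, the called value closest to the fold, and had -0.04 at 21 dpi, which relative to all genes was 0.38 and just past the fold. Adamts10, a further microfibril-associated member, had 338 and 438 FPKM at 7 dpi and 321 and 364 at 21 dpi. Its ratio of -0.37 at 7 dpi was the uncalled value closest to the fold. Adamts7, Adamts12 and Adamts16 had genotype ratios at 7 dpi from -0.13 to 0.12.

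ADAMTSL proteins resemble ADAMTSs but lack the protease domain, and several bind fibrillin microfibrils. Adamtsl2, which also binds a protein that holds latent TGF-beta, had 24.2 FPKM in ApoE3 mice and 17.1 in ApoE4 mice at 7 dpi, and 18.3 and 34.3 at 21 dpi. ApoE3 was higher at 7 dpi with 0.48, and ApoE4 at 21 dpi with -0.88, or -0.45 relative to all genes. Before the subtraction, no other gene of the family passed 1.3-fold in opposite directions at both time points. After it, Mmp23 did so as well. Adamtsl1 had 57.4 and 50.3 FPKM at 7 dpi and 49.2 and 75.2 at 21 dpi, where its ratio of -0.60 was -0.18 relative to all genes. Adamtsl4 had 136 and 148 FPKM at 7 dpi, where Adamtsl3 and Adamtsl5 were also inside the fold.

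None of the 4 TIMPs passed 1.3-fold between genotypes at 7 dpi or 2-fold with time in either genotype. Timp1, which is induced by injury and inflammation and blocks most secreted MMPs, had 59.1 FPKM in ApoE3 mice and 68.5 in ApoE4 mice at 7 dpi, and 31.5 and 54.9 at 21 dpi. Its time ratios were -0.89 and -0.31. Timp2 had 275 and 274 FPKM at 7 dpi and 175 and 239.7 at 21 dpi. Timp3, which also blocks Adam17 and several ADAMTSs, had 43.8 and 47.9 FPKM at 7 dpi, and 43.6 and 43.4 at 21 dpi. Timp4, the TIMP enriched in brain and heart, had 66.9 and 72.8 FPKM at 7 dpi and 92.0 and 136 at 21 dpi. The time ratios of the 4 inhibitors went from -0.89 to 0.45 in ApoE3 and from -0.31 to 0.89 in ApoE4. At 21 dpi, Timp1, Timp2 and Timp4 were past the fold toward ApoE4, with -0.78, -0.45 and -0.56. Relative to all genes these were -0.36, -0.03 and -0.14, all inside the fold, while Timp3 passed it toward ApoE3 with 0.43.

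Genes that activate or hold back the proteases were examined as a list of 24, of which 20 were listed at 7 dpi, 16 at 21 dpi and 15 at both. With time, 8 of 15 fell in ApoE3, compared to 7.25% of all genes, and 6 of 15 in ApoE4, compared to 4%. None rose in either, compared to 6.1% and 21.3%. Plau, the urokinase that makes plasmin, had 47.7 FPKM in ApoE3 mice and 71.9 in ApoE4 mice at 7 dpi, and 11.9 and 23.5 at 21 dpi. Its receptor Plaur had 21.2 and 21.9 FPKM at 7 dpi and 7.56 and 9.45 at 21 dpi. The matricellular protein Thbs1 had 15.7 and 32.9 FPKM at 7 dpi, and 1.79 and 2.77 at 21 dpi. These 3 fell past 2-fold in both genotypes, as did the cysteine protease Ctsb, from 1923 and 2329.6 FPKM to 599 and 930.3, and Rhbdf2, which brings Adam17 to the cell surface, from 41.3 and 53.7 to 18.1 and 14.0. The protease inhibitors A2m and Serpinf2 fell past 2-fold in ApoE3, with -1.65 and -1.03. In ApoE4 they had -0.61 and 0.43, both inside the fold, although A2m passed it relative to all genes, with -1.14. Serpinf2 was low, with 0.680 to 3.01 FPKM in the 4 groups. At 7 dpi, 4 of 20 were higher in ApoE4, compared to 4.76% of all genes, and none in ApoE3, compared to 3.78%. Among the former were Thbs1 with -1.02, Plau with -0.58 and Thbs2 with -0.38. At 21 dpi, 11 of 16 were higher in ApoE4, where the background was 58.9%. Relative to all genes, 3 of 16 were higher in ApoE3 and 4 in ApoE4, compared to 7.46% and 8.06%. Cst3, an inhibitor of cysteine proteases, had 2305 to 4567 FPKM in the 4 groups, and Bsg, which induces MMPs in neighbouring cells, had 452 to 860.1.

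Substrates were examined as a list of 31, of which 28 were listed at 7 dpi, 25 at 21 dpi and 23 at both. With time, 10 of 23 fell in ApoE3 and none rose, compared to 7.25% and 6.1% of all genes, and 9 fell and 1 rose in ApoE4, compared to 4% and 21.3%. Fibrillar collagens fell furthest. Col1a1 had 212 FPKM in ApoE3 mice and 270.0 in ApoE4 mice at 7 dpi, and 2.44 and 2.27 at 21 dpi, and Col3a1 had 178 and 243, then 2.31 and 1.79. Elastin, Eln, the namesake substrate of Mmp12, had 249.6 and 199.99 FPKM at 7 dpi and 22.6 and 22.4 at 21 dpi. Of the proteoglycans, versican (Vcan) fell in both genotypes, from 155 and 183 FPKM to 40.5 and 60.9, and neurocan (Ncan) in ApoE3, from 43.6 to 15.7, while brevican (Bcan) had 549 and 606 FPKM at 7 dpi and 925 and 1193 at 21 dpi. Col1a2, Lamb1, Cd44, Sdc1 and the TNF receptor Tnfrsf1b also fell in both genotypes, and Cx3cl1 rose in ApoE4 with 1.17, which is the 1 rise counted. Its value was 0.64 and inside the fold relative to all genes, where none of 23 rose and 12 fell in ApoE4, compared to 5.09% and 9.06% of all genes. At 7 dpi, 4 of 28, Col2a1, Col3a1, Col4a2 and Cxcl16, were higher in ApoE4, compared to 4.76% of all genes, and none was higher in ApoE3, compared to 3.78%. At 21 dpi, 14 of 25 were higher in ApoE4, close to the 58.9% of all genes, and 3, Lamb1, Sdc1 and Col1a2, were higher in ApoE3, compared to 2.01%. With the median subtracted, 7 of 25 were higher in ApoE3 and none in ApoE4, compared to 7.46% and 8.06%.

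Lists of cell markers were also followed, and they differed in direction with time. In bulk tissue, fewer cells of a type and less RNA per cell cannot be told apart. Sums of markers and the most abundant of a list are given on FPKM as deposited, with the factor of the transcript number left in, so they do not compare the genes of a list on 1 scale. The tissue carried cord markers in every group, with 120571 to 278678 FPKM of Mbp, 8201 to 15313 of Gfap and 2545 to 7812 of Snap25. Of 10 macrophage markers, 9 were listed at 7 dpi and 6 at 21 dpi. The 5 listed at both summed to 5727 FPKM in ApoE3 mice and 7596 in ApoE4 mice at 7 dpi, and to 286 and 549 at 21 dpi, with Lyz2 the most abundant at 4522, 6076, 212 and 426. Of these 5, 4 fell past 2-fold in each genotype, compared to 7.25% and 4% of all genes, as did Mmp12, Mmp14 and Mmp2. The other, Cd14, had -0.70 in ApoE3 and -0.69 in ApoE4, the latter past the fold, at -1.22, relative to all genes. Spp1, listed at 21 dpi only, had 918 FPKM in ApoE3 mice and 1809 in ApoE4 mice. At 7 dpi, 6 of 9 macrophage markers were past the fold toward ApoE4, compared to 4.76% of all genes. At 21 dpi all 6 were, where the background was 58.9%, and 3 of 6 were relative to all genes, compared to 8.06%. Of 10 fibroblast and pericyte markers, 9 were listed at both time points and summed to 672 and 841 FPKM at 7 dpi, and to 267 and 273 at 21 dpi, with Col1a1 the most abundant at 7 dpi and Rgs5 at 21 dpi. Of these 9, 4 fell past 2-fold in each genotype, compared to 7.25% and 4% of all genes, and none rose past it, compared to 6.1% and 21.3%. Relative to all genes, 4 fell in ApoE3 and 6 in ApoE4, compared to 8.51% and 9.06%. Of 10 neutrophil markers, 5 were listed at both and summed to 535 and 619 FPKM at 7 dpi, and to 336 and 512 at 21 dpi, most of it Csf3r. At 7 dpi, 3 of 5 were past the fold toward ApoE3, compared to 3.78% of all genes, and none toward ApoE4. At 21 dpi, 5 of 6 were past it toward ApoE4, where the background was 58.9%, and none toward ApoE3, compared to 2.01%. Relative to all genes, 2 of 6 were past it toward ApoE4, compared to 8.06%, and none toward ApoE3, compared to 7.46%. S100a8 had 5.28 FPKM in ApoE3 mice and 3.34 in ApoE4 mice at 7 dpi and S100a9 14.1 and 8.19, while Camp, Retnlg, Cxcr2 and Mpo were not listed. Of 6 microglia markers, 3 were listed at both and summed to 232 and 229.9 FPKM at 7 dpi, and to 205 and 360.4 at 21 dpi, with Siglech the most abundant and without P2ry12 and Cx3cr1. Of 8 neuron markers, 7 were listed at both and summed to 4926 and 3841 FPKM at 7 dpi, and to 8323 and 12209 at 21 dpi, led by Snap25. The part of any of these cell types in the time or genotype ratios of the family was not tested.

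**Figure D5:**
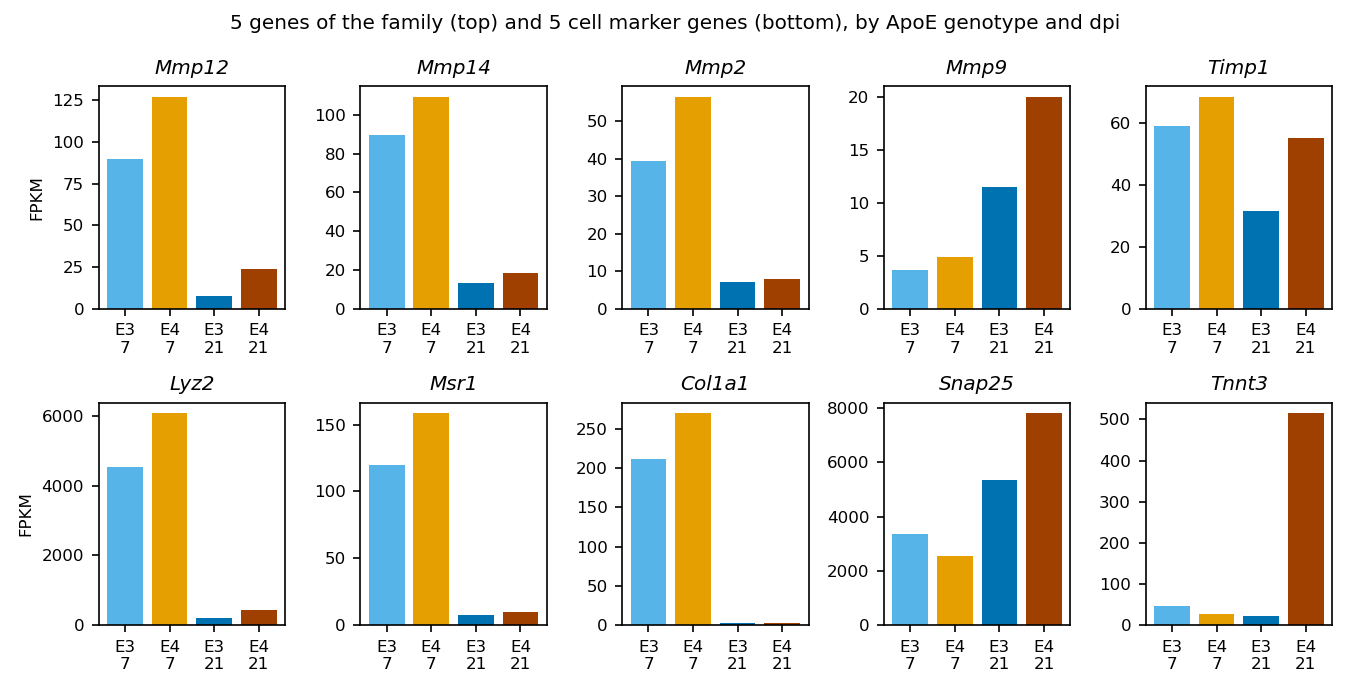
FPKM of Mmp12, Mmp14, Mmp2, Mmp9 and Timp1 in the top row and of marker genes of macrophages (Lyz2, Msr1), fibroblasts (Col1a1), neurons (Snap25) and skeletal muscle (Tnnt3) in the bottom row, 1 bar per group and axes from 0. Lyz2, Msr1 and Col1a1 are low at 21 dpi, as are Mmp12, Mmp14 and Mmp2, and Tnnt3 is high in ApoE4 at 21 dpi alone, with 515 FPKM. Of 9 fibroblast and pericyte markers listed at both time points, 4 fell past 2-fold in each genotype. Among all genes the shares were 7.25% in ApoE3 and 4% in ApoE4.

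Markers of other tissues differed between the genotypes at 21 dpi. Of 8 Schwann cell markers, 7 were listed at 21 dpi, and 6 of 7 were past the fold toward ApoE3, compared to 2.01% of all genes. Mal went the other way, with 399 FPKM in ApoE3 mice and 554 in ApoE4 mice. Its ratio of -0.47 was past the fold toward ApoE4, but was -0.05 relative to all genes. Among the others, Ncmap had 122 FPKM in ApoE3 mice and 35.7 in ApoE4 mice at 21 dpi, and Cldn19 had 18.6 and 0.188. Of 8 sensory ganglion markers, 7 were listed at 21 dpi, with 783 FPKM in ApoE3 and 832 in ApoE4 in all, most of it Calca. Without Calca the markers were low in ApoE4, and 6 of 7 were past the fold toward ApoE3, compared to 2.01% of all genes, with a median ratio of 2.32 over all of them. Avil had 39.1 FPKM in ApoE3 mice and 1.20 in ApoE4 mice, and Trpv1 and Mrgprd were listed at 0 in ApoE4. Of 10 skeletal muscle markers, 5 were listed at both time points and summed to 62.5 and 40.3 FPKM at 7 dpi, and to 32.6 and 701 at 21 dpi, led by Tnnt3. Of 8 liver markers, 6 were listed at 21 dpi only and summed to 10.5 FPKM in ApoE3 and 114 in ApoE4, led by Apoa2. The 21 dpi genotype ratios of the family, Adamts17, Mmp25 and Adamts15 among them, were read in these same groups. The time ratios of both genotypes also use these 21 dpi groups. The part of those tissues in the genotype ratios or the time ratios was not tested.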

How the data were processed

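RNA-seq values of 4 groups were used. The authors deposited FPKM plus 1 per gene and group, made per the submitters' notes with STAR 2.5.4b, Bowtie2, SAMtools 0.1.7 and Cuffdiff 1.3.0 after all libraries were down-sampled to the same number of reads. The genome build is not given in the sources used here. The table also holds the authors' p-values, q-values, fold changes and log2 fold changes, and a further table their called genes. Of these, the fold change served only to see which value column stands first in the ratio. How many reads lie behind a value is not known, and no counting error was computed. From the values, 1 was subtracted, and 2 symbols per time point that were on 2 rows were left out. Ratios used a pseudocount of 1, and folds of 1.3 for genotype and 2 for time set the calls. No test was run.

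Named genes were those past the fold that averaged 1 FPKM or more, at most 10 per direction and comparison, the 10 with the highest mean, all TIMPs, Mmp2, Mmp9, Adam10, Adam17, the proteoglycan-cleaving ADAMTSs, and genes past 1.3-fold in opposite directions at 7 and 21 dpi. Of the regulator, substrate and marker lists, the 3 most abundant genes and those past the fold could be named. Other genes were named after their values were seen. Members and lists were chosen with earlier results of these data known. The alternatives were pseudocounts of 0.1 and 0.01, a mean FPKM of at least 1, subtraction of the median of all genes, and other folds. Division by the number of RefSeq transcripts and the genes listed at both time points were added after the data were seen. Python 3.11.15 with numpy 2.4.6, pandas 2.3.3 and matplotlib 3.10.9 was used. The ratios were run on values simulated without noise, which checks the arithmetic alone and not the results. Promoters and gene neighbours came from RefSeq (GRCm38.p6), and no coordinates of the deposited rows were used. Some genes of the gene lists are in the counts but are not reported here.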

Additional observations from a re-analysis of the deposited data

Results flagged for a closer look

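Adamtsl2 differed between time points in the direction of its genotype ratio. Its level was higher in ApoE3 at 7 dpi, with a log2 ratio of 0.48, and higher in ApoE4 at 21 dpi, with -0.88, a difference of 1.35 between both ratios. Relative to the median of all genes the ratios were 0.48 and -0.45. The difference between time points was not tested, since each group has 1 value.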

How the results depend on the processing

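Pseudocounts of 0.1 and 0.01 left every count of called genes within 1.5 times, and every median of the family within 0.1, of its reported value. A mean FPKM of at least 1 removed no gene of the family, so its counts and medians could not change. Of 933 values of single named genes under all alternatives, 820 kept their side of the fold, 82 fell inside it and 31 passed it. The 820 include 122 values under the mean FPKM cutoff and 112 under genes listed at both time points. These could not change, since their ratios and folds stayed as reported. Only subtraction of the median could change a sign, and no called gene changed sign under it. There, 92 values kept their side of the fold, 20 fell inside it and 10 passed it. With the median of all genes subtracted, the counts at 21 dpi were 7 higher in ApoE3 and 3 higher in ApoE4, and with time in ApoE4 they were 1 higher and 12 lower, compared to 7.46%, 8.06%, 5.09% and 9.06% of all genes. The median then was -0.022 (genotype ratio at 21 dpi: median log2 ratio of members) and -0.53 (time ratio in ApoE4: median log2 ratio of members). A fold of 1.5 gave 1 gene higher in ApoE3 and 3 higher in ApoE4 at 7 dpi, compared to 1.22% and 1.51% of all genes, and 12 of 37 higher and 11 lower with time in ApoE4, compared to 46.2% and 7.49%. A fold of 2 gave 0 and 1 at 7 dpi, compared to 0.34% and 0.255%, and 1 and 2 at 21 dpi, where 0.741% and 3.77% of all genes passed it. A fold of 3 with time gave 0 higher and 4 lower in ApoE3, compared to 0.607% and 2.69%, and 1 higher in ApoE4, compared to 4.23%. Fewer genes pass a higher fold by construction, and other causes were not tested.

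Alternatives chosen after seeing the data also took in fewer genes. Division by transcript number, possible for 36 of 52 genes at 7 dpi, gave 4 higher in ApoE4 there, compared to 3.67% of all genes, and 1 of 28 higher in ApoE3 at 21 dpi, compared to 1.58%. With time it gave 1 higher and 5 lower of 25 in ApoE3, with a median of -0.34, and 2 higher and 4 lower in ApoE4, compared to 5.15%, 6.097%, 18.8% and 3.83% of all genes. The 37 genes listed at both time points gave 2 higher in ApoE3 and 5 higher in ApoE4 at 7 dpi, compared to 3.78% and 4.76% of all genes, and 1 higher in ApoE3 at 21 dpi, compared to 2.01%. No paired analysis was possible because each group has 1 value.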

Other observations

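None of the 5 neutrophil markers listed at both time points rose past 2-fold in both genotypes, as Mmp9 and 584 of all 10876 genes did, a count near that background. S100a9 had 14.1 FPKM in ApoE3 mice and 8.19 in ApoE4 mice at 7 dpi, and 10.3 and 27.4 at 21 dpi. Lcn2, which astrocytes and other cells make after injury as well as neutrophils, had 29.4 and 18.1 FPKM at 7 dpi, and 44.2 and 75.2 at 21 dpi. Lcn2 and S100a9 thus had time ratios of 1.998 and 1.63 in ApoE4, past 2-fold, and of 0.57 and -0.42 in ApoE3, inside it. Mmp9 had 1.83 and 1.43. Csf3r fell in both genotypes inside the fold, with -0.54 in ApoE4 and -0.80 in ApoE3, and S100a8 had 0.11 and -1.20. The values in ApoE4 relative to all genes were -1.07 for Csf3r, past the fold, and -0.42 for S100a8. These markers were picked for this account after their values were seen, and whether they share a source with Mmp9 was not tested.

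Among fibroblast markers, Dcn did not fall with Col1a1 in ApoE3, whereas both fell in ApoE4. It had 45.7 FPKM in ApoE3 mice and 56.6 in ApoE4 mice at 7 dpi, and 61.9 and 9.37 at 21 dpi. Its genotype ratio was 2.60 at 21 dpi, or 3.02 relative to all genes, whereas Mmp2 and Mmp14 had 0.30 and -0.02 relative to all genes there. At 21 dpi, 6 of 7 Schwann cell and 6 of 7 sensory ganglion markers were also past the fold toward ApoE3, compared to 2.01% of all genes. The part of such tissue in the level of Dcn was not tested.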
